A study of Mus musculus with 10 samples.

Results

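Fatty acid synthesis, elongation and NADPH supply is represented here by 38 genes, taken by symbol from a list of the pathway: the enzymes that make, desaturate and lengthen fatty acids, those that bring pyruvate into the mitochondrion and regenerate NADPH in the cytosol, and the transcription factors that govern them. All 38 were among the 30319 gene symbols of the expression table, 36 under their current symbol and 2 (Hacd2 and Hacd3) under the older symbols Ptplb and Ptplad1. All 38 also reached 1 TPM (transcript abundance scaled by transcript length and by the library's total) in 2 or more libraries, as did 16932 symbols in all. Total RNA was sequenced from fat pads of the subcutaneous mammary depot, taken at the groin, of female FVB mice. The mice were wild-type or FAP-/-, that is, null for Fap, which encodes a protease of activated stromal fibroblasts (fibroblast activation protein), and each genotype was fed an ingredient-matched diet with 10% or 60% of its kilocalories from fat from 12 to 30 weeks of age. The groups are written WT_LFD (2 libraries), Null_LFD (3), WT_HFD (2) and Null_HFD (3). Each library is a biological replicate in the series' design. The null mice are compared as labelled; which part of Fap they lack, and whether the mice were littermates, is not given in the sources used here.

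Adipocytes build fatty acids from cytosolic acetyl-CoA, which comes largely from citrate exported by mitochondria: acetyl-CoA carboxylase turns it into malonyl-CoA, and fatty acid synthase joins the units into palmitate with NADPH as the reductant. Palmitate is then lengthened in the endoplasmic reticulum by a cycle of condensation, reduction, dehydration and reduction, and desaturated by stearoyl-CoA desaturases. Transcription of the pathway is driven by SREBP, which responds to insulin and sterols, and by ChREBP, which responds to glucose; dietary fat, polyunsaturated fat above all, is known to lower it.

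Before the members are described, some features of the libraries have to be known. Lymph node marker genes (12 listed, among them Cd79a and Cr2) summed to 581 TPM in WT_HFD 2 and 1582 TPM in Null_HFD 3, against 18.6 to 34.1 TPM in the other 8 libraries, and both of these libraries stand on the high-fat side. Mature adipocyte markers were present in every library: Adipoq, the adipokine adiponectin, lay between 752 TPM in Null_HFD 3 and 3206 TPM in WT_LFD 2. Epithelial and muscle transcripts were present too, in amounts that differed widely: 14 luminal epithelium markers summed to 388 TPM in Null_HFD 3 and to 3565 TPM in Null_LFD 2, and 10 skeletal muscle markers to 99.2 TPM in Null_HFD 3 and 9485 TPM in Null_LFD 1. Fap, the targeted gene, was at 45.4 and 39.2 TPM in WT_LFD, 18.4, 22.4 and 18.3 TPM in Null_LFD, 68.8 and 37.7 TPM in WT_HFD and 26.7, 38.4 and 22.3 TPM in Null_HFD. Fap was thus lower in the null libraries of the low-fat diet, while on the high-fat diet Null_HFD 2 lay just above WT_HFD 2, and transcript remained in every null library; transcript outside a deleted part would still be counted.

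The 38 genes together made up between 0.842% of all TPM in Null_HFD 3 and 5.77% in WT_LFD 1. Most of that is 1 gene: Scd1, the main stearoyl-CoA desaturase of adipose tissue, held 53.2% to 73.6% of the members' TPM and was between the second and the 16th most abundant gene symbol of its library. Scd1 reached 30121 and 16660.1 TPM in WT_LFD, 19102, 15092 and 15904 TPM in Null_LFD, 11107 and 7442 TPM in WT_HFD and 16666, 10728 and 4431 TPM in Null_HFD. The 4 libraries lowest in Scd1 were all high-fat, but Null_HFD 1 lay within the low-fat range. At the other end, Scd3 (0.919 to 2.96 TPM) and Scd4 (0.503 to 1.58 TPM) were barely detected; the 4 Scd genes are close paralogs that lie within chr19:44203269-44407879 (GRCm38), and reads shared between them may have been split among them. TPM is scaled by transcript length, so levels can be compared between genes, and TPM shares a fixed total among all transcripts, so RNA of lymph node, epithelium or muscle takes room from adipocyte RNA.

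**Figure D1:**
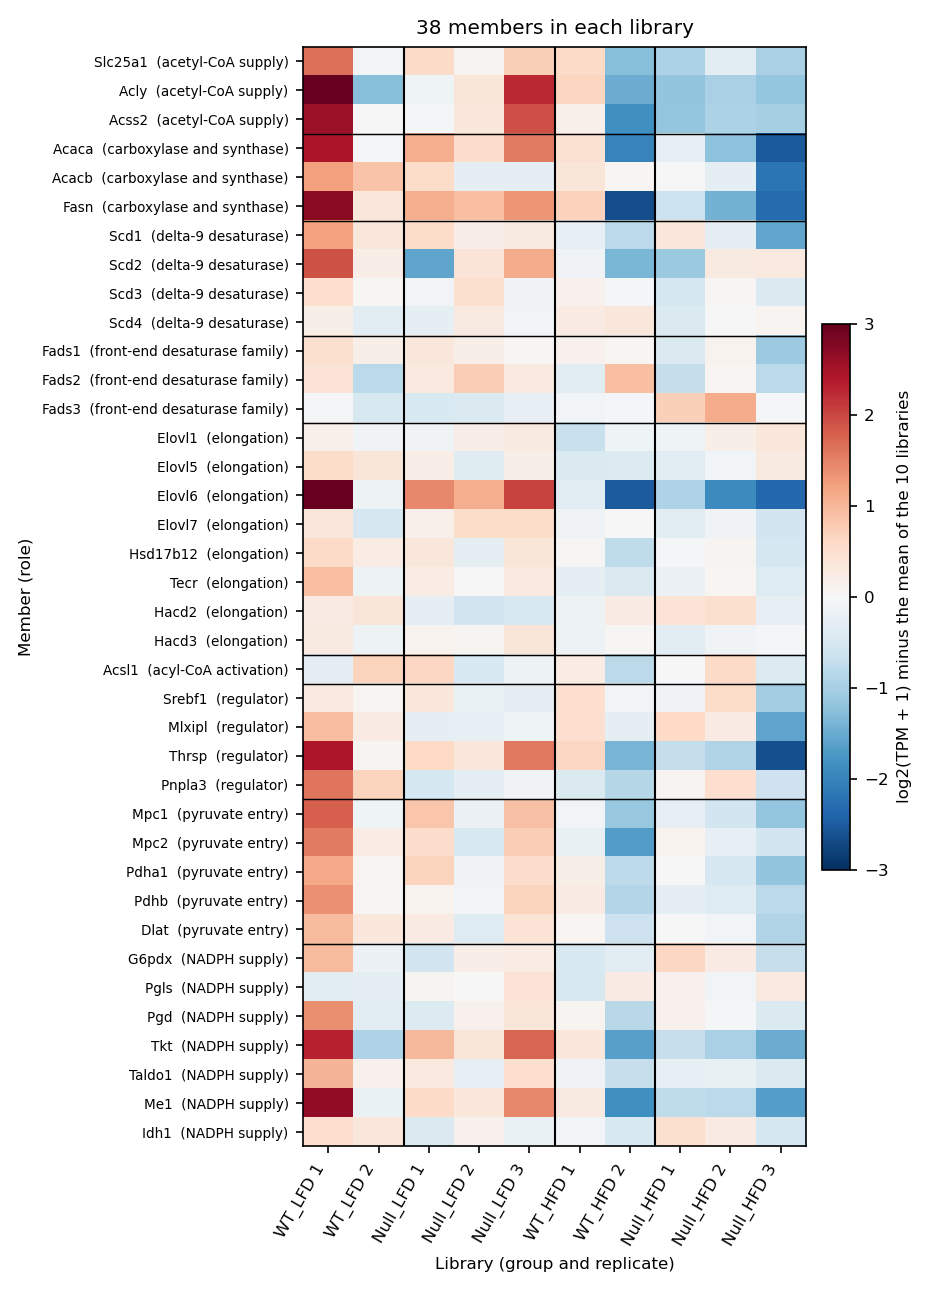
Heat map of the 38 members (rows, ordered by role) in the 10 libraries (columns, by group and replicate); colour is the deviation of log2(TPM + 1) from the gene's mean over the 10 libraries. WT_LFD 1 holds the highest value of 28 of the 38 genes, and WT_HFD 2 and Null_HFD 3 hold the lowest value of 15 and 14.

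Single libraries set much of the members' variation. WT_LFD 1 had the highest value of 28 of the 38 genes, and the lowest values lay in WT_HFD 2 for 15 genes and in Null_HFD 3 for 14, the pair of libraries rich in lymph node transcripts. Within the wild-type low-fat group, 35 of 38 genes were higher in WT_LFD 1 than in WT_LFD 2, with a median ratio of 2.09, and 20 of them by at least 2-fold, as were 11.0% of all genes. That ratio reached 19.6 for Acly, 13.5 for Elovl6 and 9.40 for Tkt. WT_LFD 1 and WT_LFD 2 had mature adipocyte markers at -0.12 and 0.31 from the 10-library mean (mean log2 deviation over the 12 markers). Plin1 (127 against 60.3 TPM) and Retn (726 against 549 TPM) were higher in WT_LFD 1, and the other listed markers were lower. The part of adipocyte content in the difference between these libraries was not tested. Across groups, the median within-group standard deviation was 0.59 on the log2(TPM + 1) scale for the members and 0.38 for all 16932 genes. This spread limits every comparison that follows.

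Of the 38 genes, 35 had at least 1 RefSeq promoter window (250 bases before to 50 after a transcript start, GRCm38.p6, from the C57BL/6J reference strain and not from FVB); Scd1, Scd2 and Fads1 had none. The upstream parts of 4 are printed 5′ to 3′ on the strand of the gene, and only outside the annotated gene body: Elovl6, the gene with the lowest high-fat minus low-fat difference, Fasn, the synthase itself, Pnpla3, whose diet difference was furthest apart between the genotypes, and Fads3, the highest of the members' diet differences. Capitals mark GC boxes (GGGCGG or its complement) and CCAAT boxes (CCAAT or its complement).
Elovl6, chr3:129532136-129532354, plus strand: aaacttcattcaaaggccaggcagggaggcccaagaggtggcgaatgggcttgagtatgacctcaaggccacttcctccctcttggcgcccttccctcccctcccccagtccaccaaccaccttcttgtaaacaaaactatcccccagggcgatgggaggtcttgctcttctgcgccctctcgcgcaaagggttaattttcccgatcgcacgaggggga
Fasn, chr11:120824548-120824797, minus strand: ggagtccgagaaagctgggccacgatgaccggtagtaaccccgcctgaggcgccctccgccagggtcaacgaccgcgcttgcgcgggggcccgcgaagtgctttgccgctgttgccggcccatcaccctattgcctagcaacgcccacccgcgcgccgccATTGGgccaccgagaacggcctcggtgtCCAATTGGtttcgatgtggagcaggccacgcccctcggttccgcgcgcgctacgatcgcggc
Pnpla3, chr15:84167566-84167815, plus strand: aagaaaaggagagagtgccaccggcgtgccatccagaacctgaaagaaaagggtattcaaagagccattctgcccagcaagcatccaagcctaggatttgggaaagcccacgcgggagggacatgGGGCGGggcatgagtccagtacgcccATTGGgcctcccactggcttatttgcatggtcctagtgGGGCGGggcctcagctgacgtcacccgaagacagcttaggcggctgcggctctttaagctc
Fads3, chr19:10041298-10041547, plus strand: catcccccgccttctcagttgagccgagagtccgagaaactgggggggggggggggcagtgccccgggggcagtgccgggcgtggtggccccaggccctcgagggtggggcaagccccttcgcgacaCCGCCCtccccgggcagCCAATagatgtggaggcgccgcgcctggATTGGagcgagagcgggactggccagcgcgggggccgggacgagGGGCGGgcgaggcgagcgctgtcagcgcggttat

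The Fasn window carries 3 CCAAT boxes, the last 2 of them overlapping in opposite orientations, Pnpla3 and Fads3 carry both kinds of box, and the Elovl6 window carries neither. Over the 250 bases before the start, both strands, GGGCGG occurred in 26 of the 35 members (74.3%) and in 59.9% of the 11180 tested genes with a window. CCAAT occurred in 22 members (62.9%) and in 40.0% of those genes. The E-box CACGTG was found in 4 members (Elovl5, Hacd3, Mlxipl and Slc25a1; 11.4%, against 9.36%), and the sterol response element core TCACNCCAC in 2 (Acsl1 and Mlxipl; 5.71%, against 1.23%). A gene was counted if any of its windows matched, and the 35 members had 44 windows. Both matches to the sterol response element core lie in windows of starts inside the annotated gene body. The windows at the outer starts of Acsl1 and Mlxipl had none. A direct repeat of the nuclear receptor half-site, searched with a spacer of 4 bases, was in no member window, and in 0.0089% of those genes. These are letter matches in short windows and not measured binding sites.

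The first comparison of the design is between the diets. High-fat libraries had lower values of most members: averaged over the genotypes, 34 of 38 genes were lower and 4 higher (Scd4, Fads3, Hacd2 and Pgls), with a median difference of -0.60 on the log2(TPM + 1) scale, while the median over all 16932 genes was 0.11. The lowest differences belonged to the fatty acid elongase Elovl6, to Fasn and to Acaca, which had ranks 1, 3 and 10 counted from the lowest of all 16932 genes. No member passed the threshold in limma (adjusted p of at most 0.05 over all genes tested), nor did any other gene: percent called was 0. At an unadjusted p under 0.05, 18 members were lower and 1 was higher, against 2.34% and 7.35% of all genes. In bulk tissue, fewer cells of a type and less RNA per cell cannot be told apart.

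That count of 18 depends on the libraries kept. With 1 null library left out it ran from 13 without Null_LFD 3, against 2.04% of all genes, to 19 without Null_HFD 2, against 3.16%. Leaving out a wild-type library leaves 1 in its group, so only sizes are given for that. The median of the members was -0.49 without WT_LFD 1 (0.14 over all genes) and -0.52 without WT_HFD 2 (0.07 over all genes). Without both lymph node-rich libraries it was -0.45 (0.06 over all genes), with 31 of 38 members still lower. Centred on the 12 mature adipocyte markers, 36 of 38 members were lower, with a median of -0.76 (-0.05 over all genes, which this scaling moves by the same amount). Of these, 18 were lower at an unadjusted p under 0.05, against 1.59% of all genes.

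Elovl6, the elongase that lengthens palmitate to stearate (chr3:129532355-129638495, plus strand), was the 1 member with no overlap between the 5 low-fat and the 5 high-fat libraries, as were 0.413% of all genes in that direction and 1.59% in the other. It stood at 741 and 54.8 TPM in WT_LFD and 166, 131 and 252 TPM in Null_LFD, against 48.8 and 10.0 TPM in WT_HFD and 31.6, 15.5 and 11.0 TPM in Null_HFD. The gap between the lowest low-fat and the highest high-fat library is narrow, and both are wild-type. Averaged over genotypes its difference was -3.18 (SE 0.71), with a limma adjusted p of 0.513, and it was -3.12 (SE 1.10) in wild-type and -3.25 (SE 0.90) in null mice (adjusted p = 0.761 and 0.699). Without both lymph node-rich libraries the averaged difference was -2.48, and the wild-type difference was -1.25 without WT_LFD 1, -4.98 without WT_LFD 2 and -2.03 without WT_HFD 2. Elovl5, which lengthens polyunsaturated fatty acids, moved over a much smaller range, so the ratio of Elovl6 to Elovl5 TPM was 0.444 to 5.26 in low-fat and 0.0955 to 0.692 in high-fat libraries. Set against Adipoq, Elovl6 was 0.0171 to 0.418 of its TPM in low-fat and 0.00646 to 0.0183 in high-fat libraries. In both ratios WT_LFD 2 lay below WT_HFD 1, so the diets overlapped.

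The enzymes of the committed steps had low high-fat values too. Fasn, fatty acid synthase (chr11:120805846-120824547, minus strand), was at 3006 and 581 TPM in WT_LFD, 988, 863 and 1158 TPM in Null_LFD, 741 and 72.5 TPM in WT_HFD and 297, 171 and 92.0 TPM in Null_HFD. Only WT_HFD 1 reached into the low-fat range; in the null mice the groups did not overlap. Its averaged difference was -2.53 (SE 0.68, limma adjusted p = 0.513), and in null mice -2.57 (SE 0.86, adjusted p = 0.715). Acaca, the cytosolic acetyl-CoA carboxylase, was at 2369.6 and 426 TPM in WT_LFD, 917, 621 and 1266 TPM in Null_LFD, 595 and 108 TPM in WT_HFD and 364, 184 and 74.3 TPM in Null_HFD. As for Fasn, the null groups were separate and the wild-type groups overlapped, with an averaged difference of -2.18 (SE 0.66, adjusted p = 0.513). Without both lymph node-rich libraries the averaged differences of Fasn and Acaca were -1.49 and -1.27. Acacb, the mitochondrial carboxylase whose malonyl-CoA restrains fatty acid oxidation, differed less, by -0.83. Its level was 34.3 to 100.2 TPM in low-fat and 8.40 to 54.1 TPM in high-fat libraries, and the ratio of Acaca to Acacb TPM was 5.52 to 36.8 and 2.43 to 11.0.

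**Figure D2:**
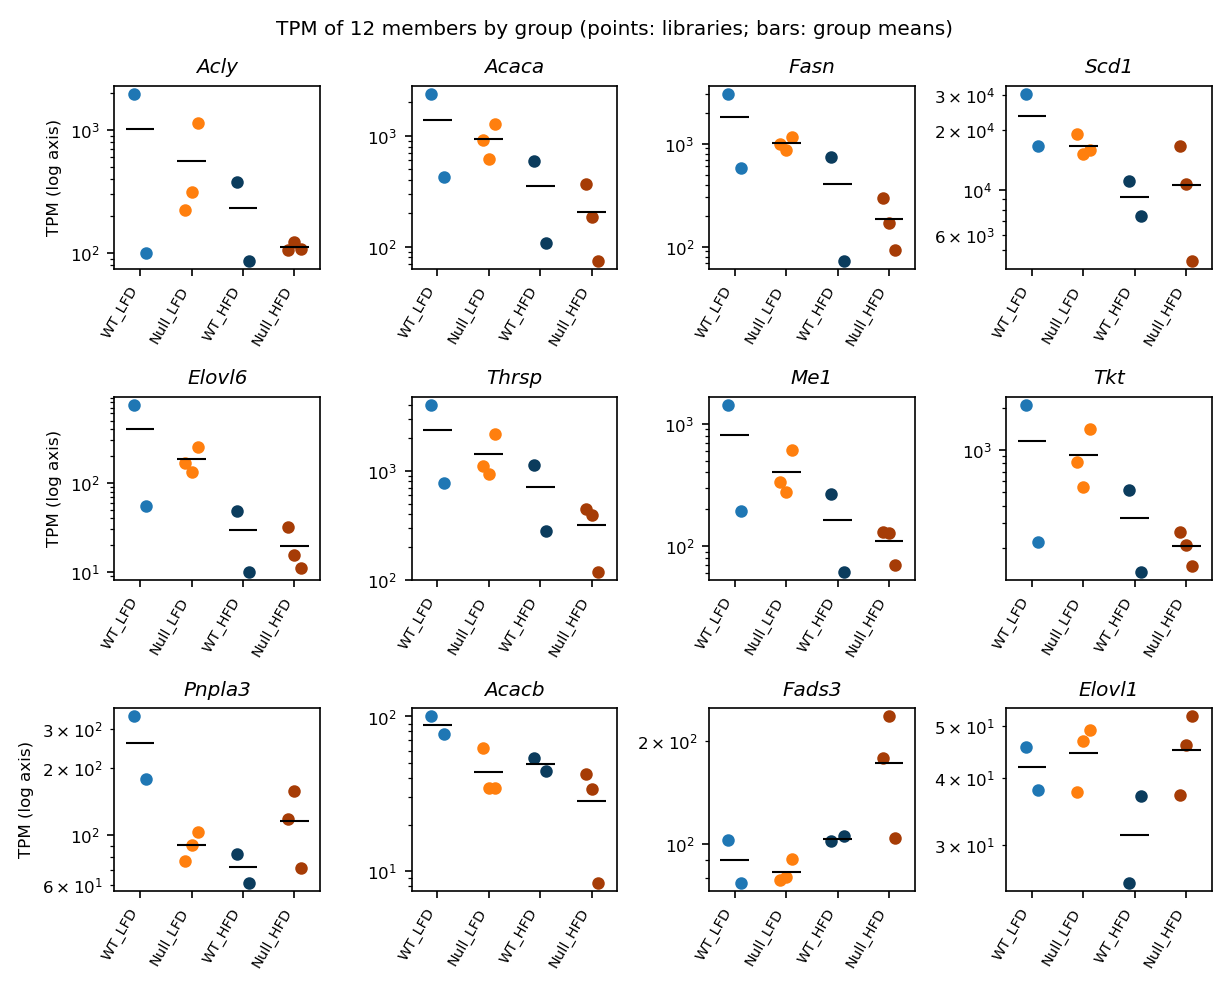
TPM of 12 members in each group on a log axis, each with its own range; points are libraries and bars are group means. Elovl6 separates all low-fat (54.8 TPM and above) from all high-fat libraries (48.8 TPM and below), and WT_LFD 1 is the highest point for Acly, Acaca, Fasn, Scd1, Elovl6, Thrsp, Me1, Tkt, Pnpla3 and Acacb.

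Enzymes that supply cytosolic acetyl-CoA were lower on the high-fat diet in both genotypes, 3 of 3 by their differences, but varied widely within groups. Acly, ATP citrate lyase, which splits exported citrate, was at 1953 and 99.8 TPM in WT_LFD, 225, 312 and 1151 TPM in Null_LFD, 381 and 86.5 TPM in WT_HFD and 106, 124 and 108 TPM in Null_HFD. In null mice every low-fat library exceeded every high-fat one, and in wild-type mice WT_LFD 2 lay between the high-fat values. Its averaged difference was -1.61. Acss2, which makes acetyl-CoA from acetate, was at 506 and 83.9 TPM in WT_LFD, 81.4, 107 and 321 TPM in Null_LFD, 92.8 and 22.4 TPM in WT_HFD and 36.6, 42.5 and 41.2 TPM in Null_HFD, a difference of -1.97 (SE 0.59, limma adjusted p = 0.513). Slc25a1, the citrate carrier of the inner mitochondrial membrane, ranged from 227 to 760.2 TPM in low-fat and from 99.1 to 361 TPM in high-fat libraries, with a difference of -1.16. All 3 were separate and lower between the null groups of 3 libraries, against 4.49% of all genes. None was separate between the wild-type groups of 2 libraries, against 11.5% of all genes separate and lower.

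The enzymes of pyruvate entry lay lower as a group: all 5 were lower on the high-fat diet in each genotype, and all 5 were among the 18 at an unadjusted p under 0.05. These were the subunits of the mitochondrial pyruvate carrier, Mpc1 (-1.29) and Mpc2 (-1.17), and 3 subunits of the pyruvate dehydrogenase complex, Pdha1 (-0.92), Pdhb (-0.86) and Dlat (-0.67). Mpc1 was at 403 to 1569 TPM in low-fat and 203 to 431 TPM in high-fat libraries, and Pdha1, the catalytic subunit, at 300.2 to 721 and 144 to 369 TPM. Pdhb was at 152 to 423 and 88.5 to 193 TPM and Dlat, the acetyltransferase, at 111 to 279.6 and 76.8 to 151 TPM, so that each of these 4 overlapped between the diets. Mpc2 had the lowest of these differences in wild-type mice, -1.83 (SE 0.60, limma adjusted p = 0.761), with 803 and 318 TPM on the low-fat and 233 and 85.1 TPM on the high-fat diet. That difference was -1.11 without WT_HFD 2 and -1.17 without WT_LFD 1. Its wild-type groups did not overlap, whereas in null mice they did (392, 198 and 456 against 293, 231 and 183 TPM).

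Of the 7 NADPH-supply genes, 6 were lower and 1 was higher in the averaged diet comparison. Me1, the cytosolic malic enzyme, was at 1414 and 193 TPM in WT_LFD, 334, 276 and 606 TPM in Null_LFD, 267 and 61.4 TPM in WT_HFD and 131, 127 and 69.6 TPM in Null_HFD. Its difference was -1.93 (SE 0.59), with a limma adjusted p of 0.513, and the null groups did not overlap. It was -1.22 without WT_LFD 1 and -1.26 without both lymph node-rich libraries. Tkt, transketolase of the non-oxidative pentose phosphate branch, was at 821, 541 and 1409 TPM in Null_LFD and 258, 211 and 149 TPM in Null_HFD, and at 2074 and 221 TPM in WT_LFD and 519 and 135 TPM in WT_HFD. Its averaged difference was -1.72, and again the null groups alone were separate. Taldo1, transaldolase of the same branch, was at 590.5 and 318 TPM in WT_LFD and 268 and 181 TPM in WT_HFD, a wild-type difference of -0.97 (SE 0.36, adjusted p = 0.761), which was -0.53 without WT_LFD 1.

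The oxidative pentose phosphate enzymes, which make NADPH from glucose 6-phosphate, were less far apart. G6pdx, glucose-6-phosphate dehydrogenase, differed by -0.33 between the diets, ranging from 107 to 307 TPM in low-fat and from 98.2 to 246 TPM in high-fat libraries. Pgd, phosphogluconate dehydrogenase, differed by -0.53, and Pgls, the lactonase between them, by 0.07. Idh1, the cytosolic isocitrate dehydrogenase, differed by -0.23. Over all 10 libraries Pgd was at 56.0 to 266 TPM, Pgls at 43.8 to 81.5 TPM and Idh1 at 159.7 to 329 TPM. In each of these 4 the 5 low-fat and 5 high-fat libraries overlapped. Within wild-type mice alone G6pdx and Idh1 were separate and lower, as were 11.5% of all genes, and Pgd and Pgls overlapped. G6pdx was at 307 and 141 TPM in WT_LFD and 116 and 128 TPM in WT_HFD. Idh1 was at 329 and 293 TPM in WT_LFD and 219 and 170 TPM in WT_HFD. Within null mice all 4 overlapped.

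Desaturases did not share 1 pattern. Fads3, a member of the front-end desaturase family in a cluster with Fads1 and Fads2 (chr19:10041569-10060110, plus strand), was the member with the highest diet difference. It was at 178, 235 and 105 TPM in Null_HFD and 78.9, 80.2 and 90.7 TPM in Null_LFD, and at 102 and 106 TPM in WT_HFD and 103 and 77.3 TPM in WT_LFD. All 3 Null_HFD libraries exceeded the Null_LFD libraries, though Null_HFD 3 lay at the level of WT_HFD. The difference was 0.97 (SE 0.27) in null mice (limma adjusted p = 0.699) and 0.22 in wild-type mice. Fads1 and Fads2, the desaturases of polyunsaturated fatty acid synthesis, differed by -0.66 and -0.93 in null mice, and by -0.24 and 0.47 in wild-type mice. Fads2 was separate between the null groups, at 36.9, 50.8 and 37.1 TPM on the low-fat and 18.0, 31.2 and 16.7 TPM on the high-fat diet, and in wild-type mice it overlapped. Fads1 was at 77.0, 68.9 and 62.8 TPM in Null_LFD and 44.6, 65.8 and 28.1 TPM in Null_HFD. Scd1 differed by -1.07 averaged over genotypes, and Scd2, a stearoyl-CoA desaturase of many tissues, by -0.97, from 25.1 to 292 TPM in low-fat to 29.3 to 95.6 TPM in high-fat libraries.

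Other enzymes of elongation differed less than Elovl6. Elovl5 was at 141 and 123 TPM in WT_LFD and 70.5 and 71.4 TPM in WT_HFD, a wild-type difference of -0.88 (SE 0.26, limma adjusted p = 0.761). In null mice it was at 109, 74.1 and 107 TPM on the low-fat and 76.4, 89.6 and 116 TPM on the high-fat diet, with overlap. The ketoreductase Hsd17b12 and the enoyl reductase Tecr, which serve all elongases, differed by -0.53 and -0.54 averaged over genotypes. The dehydratase Hacd2 was at 28.7, 22.9 and 24.8 TPM in Null_LFD and 46.8, 48.7 and 29.3 TPM in Null_HFD, with no overlap and a difference of 0.66 (SE 0.23, adjusted p = 0.715); its wild-type difference was -0.25. Hacd3, its relative, differed by -0.23, and the very-long-chain elongases Elovl1 and Elovl7 by -0.21 and -0.35. Over all 10 libraries Hsd17b12 was at 84.8 to 216 TPM, Tecr at 106 to 270.3 TPM, Hacd3 at 34.4 to 56.8 TPM and Elovl7, the scarcest elongase of the list, at 1.99 to 5.60 TPM.

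The genes of both transcription factors had small diet differences. Srebf1, the gene of the insulin-responsive SREBP, was at 243 and 205 TPM in WT_LFD, 243, 171 and 159.6 TPM in Null_LFD, 281 and 187 TPM in WT_HFD and 182, 287 and 94.9 TPM in Null_HFD. High-fat and low-fat libraries overlapped in both genotypes, and the averaged difference was -0.05. Mlxipl, the gene of ChREBP, differed by -0.25, at 28.3 to 66.0 TPM in low-fat and 10.9 to 52.7 TPM in high-fat libraries. Transcript levels of these genes say nothing of how much of the protein was processed or in the nucleus. Thrsp, a nuclear protein of lipogenic tissue induced by thyroid hormone and carbohydrate, differed far more, at 3978 and 773 TPM in WT_LFD, 1115, 929.8 and 2191 TPM in Null_LFD, 1133 and 279 TPM in WT_HFD and 449.9, 390.1 and 118 TPM in Null_HFD. Its null groups were separate, with a difference of -2.25 (SE 0.78, limma adjusted p = 0.715). Acsl1, the long-chain acyl-CoA synthetase of adipocytes, which activates fatty acids whatever their origin, had overlapping diets (565 to 1232 and 438 to 1143 TPM) and a difference of -0.22.

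Within wild-type mice alone, 32 of 38 members were lower on the high-fat diet, with a median of -0.89 (0.20 over all genes), and 15 were separate and lower, as were 11.5% of all genes; Scd4 was separate and higher, as were 33.7% of all genes. In that comparison 8 members were lower at an unadjusted p under 0.05, against 1.37% of all genes, and none higher, against 4.24%. Leaving out a wild-type library leaves 1 in its group, so only sizes are given for that. The median of the members was -0.35 without WT_LFD 1 (0.26 over all genes) and -1.30 without WT_LFD 2 (0.13 over all genes). It was -0.48 without WT_HFD 2 (0.10 over all genes) and -1.21 without WT_HFD 1 (0.27 over all genes). Within null mice 31 members were lower, with a median of -0.46 (0.04 over all genes), and 14 were separate and lower, against 4.49% of all genes; Fads3 and Hacd2 were separate and higher, against 6.6%. There 9 were lower and 2 (Fads3 and Hacd2) higher at an unadjusted p under 0.05, against 3.11% and 3.56% of all genes. At that p 2 were lower without Null_LFD 3, against 3.08% of all genes, and 2 without Null_HFD 3, against 2.1%. No member passed the adjusted threshold in either genotype; percent called over all genes was 0 in wild-type and 0.00591 in null mice.

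**Figure D3:**
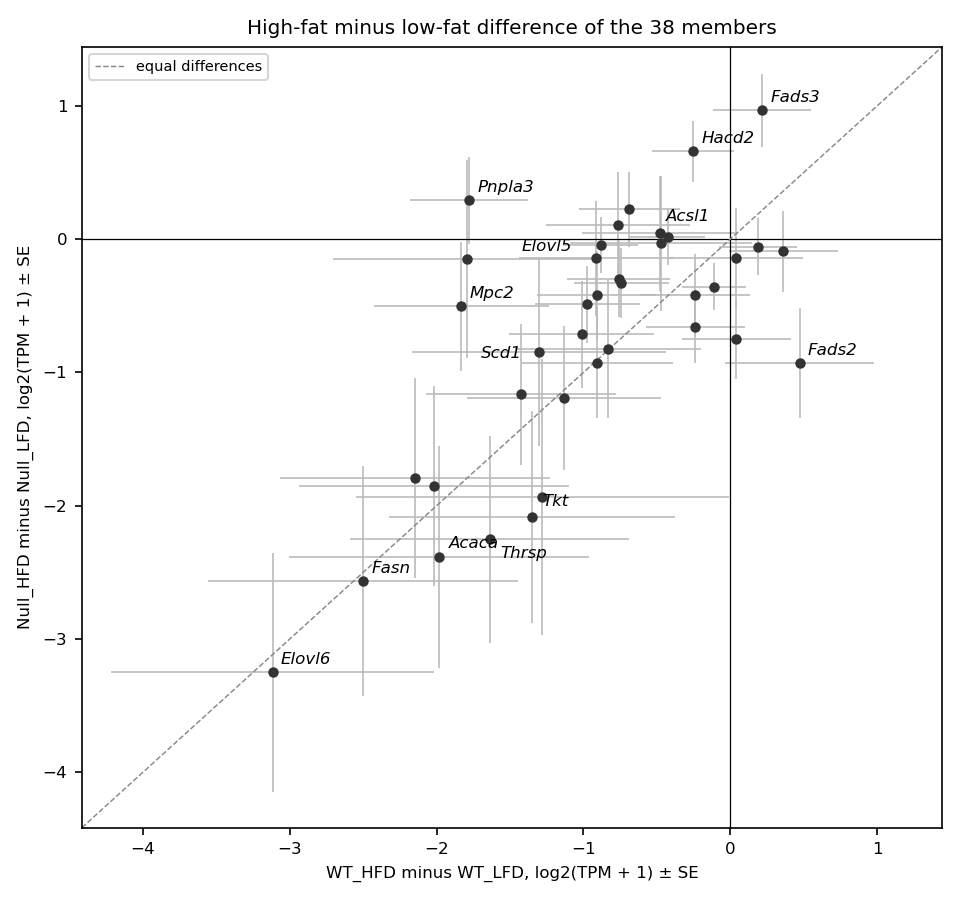
High-fat minus low-fat difference of each of the 38 members in wild-type (horizontal axis) and null mice (vertical axis), log2(TPM + 1), with standard errors from limma; the dashed line marks equal differences. Elovl6 and Fasn lie low on both axes near the line, while Pnpla3 (-1.78 and 0.29) and Mpc2 (-1.83 and -0.50) lie away from it.

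The second comparison is between the genotypes. Averaged over the diets, 30 members were lower and 8 higher in null mice, with a median of -0.22 (0.08 over all genes), and none was separate between the 4 wild-type and the 6 null libraries (0.543% of all genes were separate and higher, and 0.378% separate and lower). No member passed the adjusted threshold in limma, nor did any gene (percent called 0), and 1 member (Acacb) was lower at an unadjusted p under 0.05, against 1.29% of all genes, and none was higher, against 2.9%. The direction of the median turned with single libraries. It was 0.09 without WT_LFD 1 (0.12 over all genes), with 26 members higher, and 0.02 without WT_HFD 1 (0.04 over all genes), with 19 higher. Centring on the mature adipocyte markers moved all genes by the same amount, the median of all genes to 0.34 and that of the members to 0.03. No direction of the members as a group is therefore given for genotype.

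Acacb (chr5:114146535-114250761, plus strand) had the smallest unadjusted p of the members. It was at 100.2 and 77.2 TPM in WT_LFD and 62.6, 34.3 and 34.4 TPM in Null_LFD, and at 54.1 and 44.2 TPM in WT_HFD and 42.5, 34.0 and 8.40 TPM in Null_HFD. On each diet the null libraries all lay below the wild-type libraries, but those of Null_LFD and WT_HFD overlapped. The averaged difference was -1.04 (SE 0.41), with a limma adjusted p of 0.98. The next 4 genes by p were Pgls at 0.35 (SE 0.17), Elovl1 at 0.31 (SE 0.17), Fads1 at -0.36 (SE 0.22) and Hacd2 at -0.28 (SE 0.18), each with an adjusted p of 0.98. Without WT_HFD 1 Pgls was at 0.17 and Elovl1 at 0.17, without WT_HFD 2 Pgls was at 0.53 and Hacd2 at -0.18, and without Null_HFD 3 Fads1 was at -0.21 and Hacd2 at -0.17; without both lymph node-rich libraries Fads1 was at -0.23 and Hacd2 at -0.07.

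On the low-fat diet, 31 of 38 members were lower in null than in wild-type mice, with a median of -0.32 (0.15 over all genes), but 25 were higher once WT_LFD 1 was left out, with a median of 0.21 (0.21 over all genes). Groups were separate for 7 members: Acacb, Elovl5, Hacd2, Mlxipl, Pnpla3 and Idh1 were lower and Pgls was higher, as were 6.3% and 19.1% of all genes. Pnpla3, a lipid-droplet acyl hydrolase that is induced with lipogenesis (chr15:84167837-84187236, plus strand), was at 341 and 179 TPM in WT_LFD and 76.6, 90.9 and 104 TPM in Null_LFD, a difference of -1.45 (SE 0.37) with a limma adjusted p of 0.949. It was -0.98 without WT_LFD 1. Hacd2 differed by -0.74 (SE 0.25), at 41.2 and 45.0 TPM in WT_LFD and 28.7, 22.9 and 24.8 TPM in Null_LFD. Pnpla3 and Hacd2 were the 2 members lower at an unadjusted p under 0.05, against 0.797% of all genes, and none was higher, against 3.63%. The differences of the next 3 by p were -0.46 (SE 0.24) for Elovl5, 0.47 (SE 0.24) for Pgls and -0.58 (SE 0.31) for Idh1; that of Elovl5 was -0.28 without Null_LFD 2. The adjusted p of all 5 was 0.949, and no gene passed that threshold on this diet (percent called 0). Mlxipl was at 66.0 and 41.2 TPM in WT_LFD and 28.3, 29.2 and 31.4 TPM in Null_LFD.

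On the high-fat diet, 22 members were lower and 16 higher in null mice, with a median of -0.15 (0.02 over all genes); 27 were higher without WT_HFD 1, with a median of 0.37 (-0.07 over all genes). None passed the adjusted threshold, and none had an unadjusted p under 0.05; percent called over all genes was 0.0118 by the adjusted p, and 1.88% of genes were higher and 1.94% lower by the unadjusted p. Elovl1, which lengthens saturated very-long-chain fatty acids, was at 25.5 and 37.1 TPM in WT_HFD and 37.2, 46.1 and 52.1 TPM in Null_HFD, a difference of 0.53 (SE 0.23). Its groups were separate by a margin of under 1 TPM. Elovl5 was separate too, at 70.5 and 71.4 TPM in WT_HFD and 76.4, 89.6 and 116 TPM in Null_HFD. Acacb and Scd4 were separate and lower in the null libraries; 7.73% of all genes were separate and higher and 7.78% separate and lower. Fads3 differed by 0.65 (SE 0.31), Fads1 by -0.57 (SE 0.31), Acacb by -1.04 (SE 0.58) and Pnpla3 by 0.62 (SE 0.37). The limma adjusted p of these and of Elovl1 was 1. Each of the 5 moved by over 1.5 times when single libraries were left out: without Null_HFD 3 Acacb was at -0.36 and Fads1 at -0.26, without Null_HFD 2 Fads3 was at 0.39, Pnpla3 at 0.37 and Fads1 at -0.86, without WT_HFD 2 Pnpla3 was at 0.41, and without WT_HFD 1 Elovl1 was at 0.26. Without both lymph node-rich libraries Acacb was at -0.50, Fads1 at -0.31 and Fads3 at 0.997. Fasn was at 741 and 72.5 TPM in WT_HFD and 297, 171 and 92.0 TPM in Null_HFD, and the wild-type libraries lay on both sides of all 3 null ones.

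**Figure D4:**
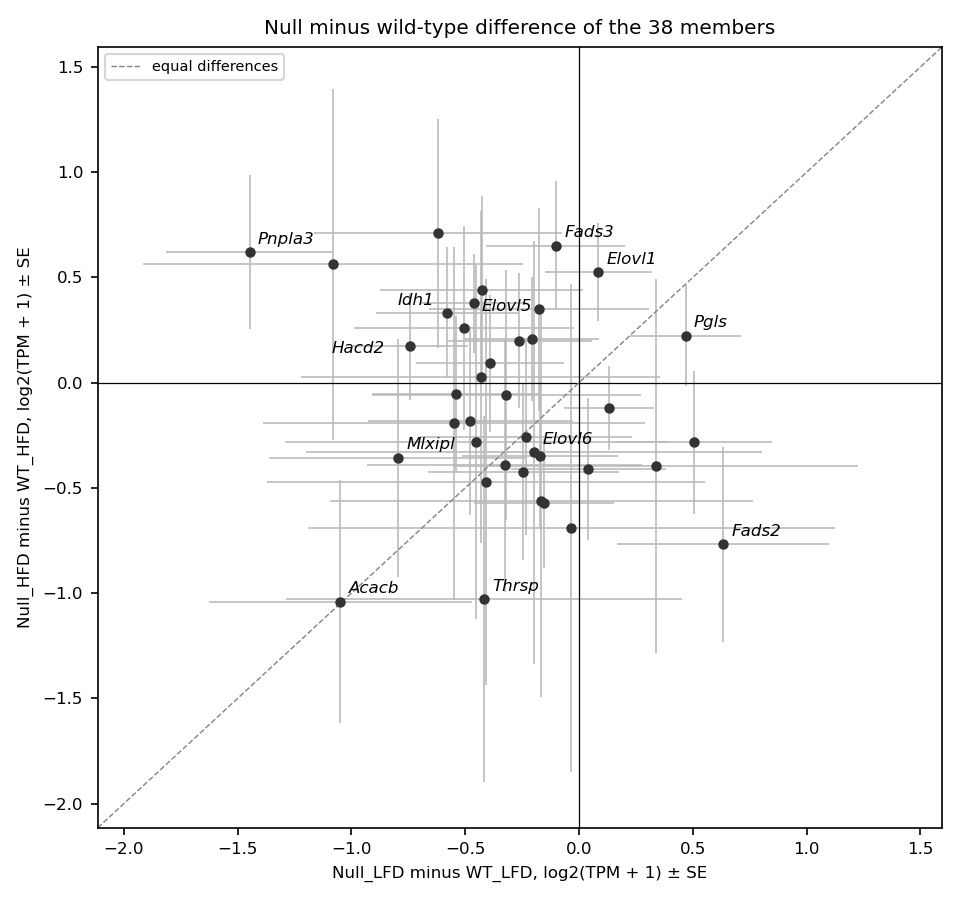
Null minus wild-type difference of each of the 38 members on the low-fat (horizontal axis) and the high-fat diet (vertical axis), log2(TPM + 1), with standard errors from limma; the dashed line marks equal differences. Acacb is at -1.05 and -1.04 on the 2 diets (-0.36 on the high-fat diet without Null_HFD 3), and Pnpla3 is at -1.45 on the low-fat and 0.62 on the high-fat diet.

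Whether diet and genotype combine was tested as the null minus wild-type difference on the high-fat diet less that on the low-fat diet. Of the members, 22 had a value above 0 and 16 below, with a median of 0.28 (-0.13 over all genes), and leaving out both lymph node-rich libraries gave 19 and 19. Without WT_LFD 1 the members turned to 15 above and 23 below 0, with a median of -0.27 (-0.19 over all genes). Without WT_LFD 2 they were 31 above and 7 below, with a median of 0.87 (-0.07 over all genes). None passed the adjusted threshold, nor did any other gene (percent called 0); 3 members (Pnpla3, Hacd2 and Elovl5) were above 0 at an unadjusted p under 0.05, against 1.07% of all genes, and none was below 0, against 3.07%. Pnpla3 had its highest group mean in WT_LFD: it was at 82.7 and 61.3 TPM in WT_HFD and 118, 158 and 71.9 TPM in Null_HFD beside the low-fat values given above. Its high-fat minus low-fat difference was -1.78 (SE 0.40) in wild-type and 0.29 in null mice, and the interaction was 2.07 (SE 0.52) with a limma adjusted p of 0.994. Leaving out WT_LFD 1 gave an interaction of 1.61, and leaving out both lymph node-rich libraries 2.16. The interaction of Hacd2 was 0.91 (SE 0.36), that of Elovl5 0.84 (SE 0.33), that of Fads2 -1.40 (SE 0.66) and that of Idh1 0.91 (SE 0.44); the adjusted p of these 4 was 1. That of Fads2 was -0.77 without WT_HFD 2, -0.79 without WT_LFD 2 and -0.61 without both lymph node-rich libraries. The comparisons within a diet and within a genotype share libraries with each other and with the interaction, so they are not separate evidence.

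A wider list of 42 other genes of the pathway (further elongases, acyl-CoA synthetases, pyruvate dehydrogenase kinases and phosphatases, sterol-sensing proteins and regulators) had 40 genes that could be tested. None passed the adjusted threshold in any of the 7 comparisons. On the high-fat diet, averaged over genotypes, 26 were lower and 14 higher, with a median of -0.16 (0.11 over all genes). At an unadjusted p under 0.05, 6 were lower and 2 higher, against 2.34% and 7.35% of all genes. Insig1, the sterol-regulated protein that holds SREBP in the endoplasmic reticulum and is itself an SREBP target, had the smallest p: 545 and 390.3 TPM in WT_LFD, 279.5, 127 and 173 TPM in Null_LFD, 133 and 54.1 TPM in WT_HFD and 88.6, 207 and 111 TPM in Null_HFD. Its difference was -1.48 (SE 0.34, limma adjusted p = 0.513); the wild-type diets were separate and the null ones overlapped. Usf1, an E-box-binding transcription factor, followed at 0.63 (SE 0.20) and Pdhx, the component that binds the dihydrolipoamide dehydrogenase of the pyruvate dehydrogenase complex, at -0.52 (SE 0.19). For genotype, averaged over diets, 20 were lower and 20 higher, while 36.5% of all genes were lower. The smallest p values there belonged to Pdhx at -0.50 (SE 0.19), to Scap, the escort of SREBP, at 0.40 (SE 0.16) and to Usf2, the partner of Usf1, at -0.50 (SE 0.23), with an adjusted p of 0.98.

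Cell-type marker lists moved with the members in part. On the high-fat diet, averaged over genotypes, all 10 skeletal muscle markers (median difference -1.93), all 8 thermogenic adipocyte markers (-0.89) and all 5 basal epithelium markers (-0.42) had lower values, as had 12 of 14 luminal markers (-0.46), 5 of 12 mature adipocyte markers (0.30) and 3 of 8 macrophage markers (0.34), and all 12 lymph node markers had higher ones (2.11). WT_HFD 2 and Null_HFD 3, where the members' mean deviation was -0.74 and -0.87, had lymph node markers at 2.96 and 4.43, while the other 8 libraries lay between -1.18 and -0.61. Thermogenic adipocyte markers (8 genes, among them Ucp1) were lowest in the same libraries, at -1.80 and -2.06, and Ucp1 was at 3.69 and 1.35 TPM there, against 49.2 to 859.8 TPM elsewhere. Skeletal muscle markers were lowest in these libraries too, at -3.15 and -4.09, against -0.16 to 2.29 in the other 8. Mature adipocyte markers were at -1.07 in Null_HFD 3 and 0.07 in WT_HFD 2; they were highest in Null_HFD 2 (0.62) and Null_HFD 1 (0.43), where the members' mean deviation was -0.21 and -0.24. In these last 2 libraries the mean of the members lay below and that of the adipocyte markers above its 10-library mean, and the reason was not tested. Luminal epithelium, which makes fatty acids for milk, had its highest markers in Null_LFD 1 (1.09) and Null_LFD 2 (1.27), where the members were at 0.20 and 0.09, and lay at 0.11 in WT_LFD 1, where the members were at 1.19. The milk protein gene Csn2 was at 79.4 TPM in WT_LFD 1 and 0 in Null_HFD 3, and Wap, another, was at 0 in both WT_LFD libraries, Null_HFD 2 and Null_HFD 3. Beyond the centring on adipocyte markers and the omission of the lymph node-rich libraries given above, the part of these cell types in the members' differences was not tested.

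**Figure D5:**
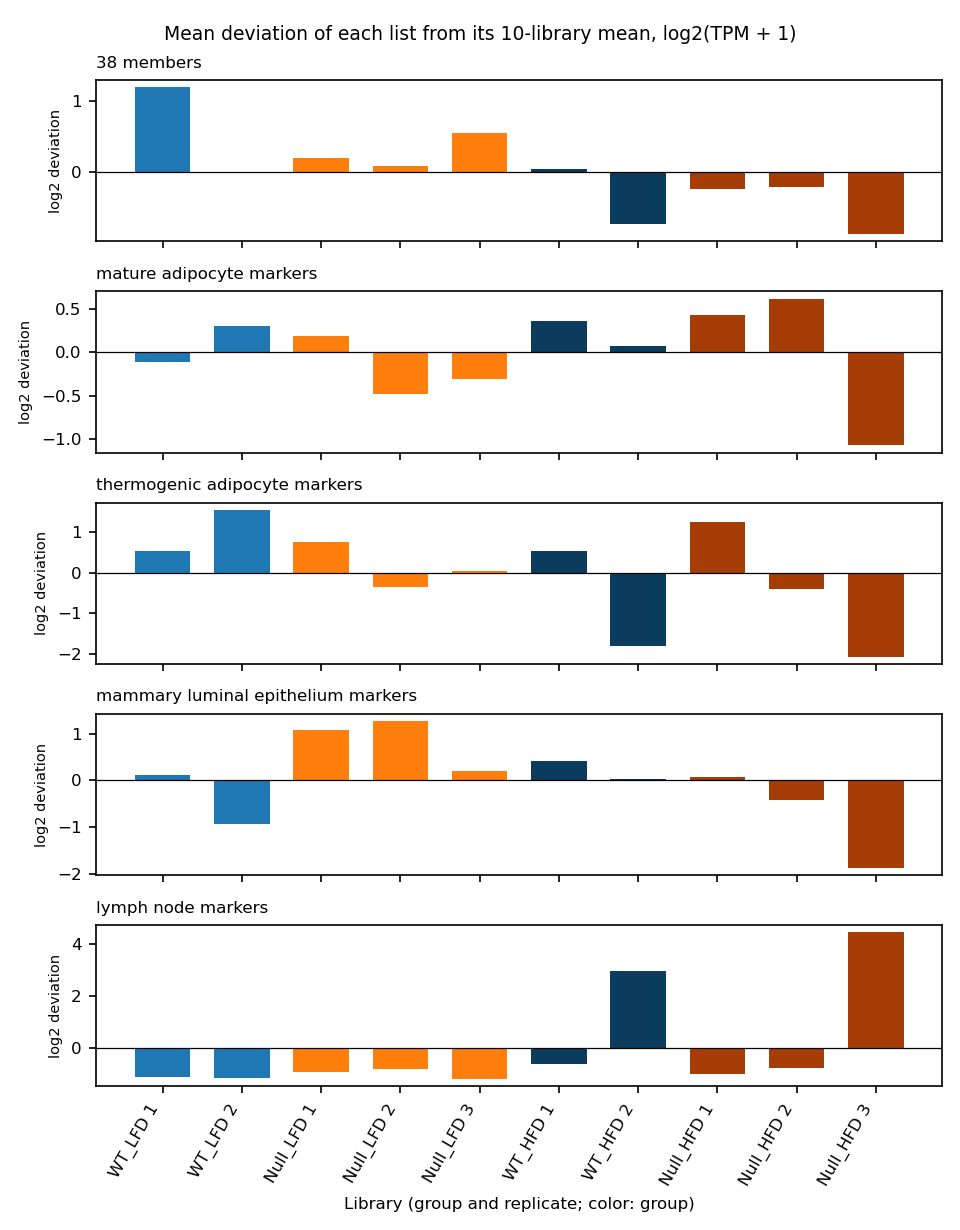
Mean deviation of log2(TPM + 1) from the 10-library mean, per library, for the 38 members and 4 lists of cell-type markers (bars; colour gives the group; each panel has its own scale). The members are highest in WT_LFD 1 (1.19) and lowest in Null_HFD 3 (-0.87), and the lymph node list stands out in WT_HFD 2 (2.96) and Null_HFD 3 (4.43).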

How the data were processed

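Total RNA depleted of ribosomal RNA was sequenced from 10 fat pads, per the labels' protocols. The authors' deposited table holds log2(TPM + 1) per gene symbol; that unit was inferred, since back-transformed values sum to between 946103 and 954463 per library. Read depth is therefore unknown. The submitters' processing notes name kallisto, limma and GRCm38, without versions or roles. Groups came from the titles. For this work limma 3.58.1 in R 4.3.3 was fitted to 4 group means (mean-variance trend, 6 residual degrees of freedom, two-sided) over the 16932 genes that reached 1 TPM in 2 or more libraries. Benjamini-Hochberg adjustment ran over all of them, in 7 comparisons, with calls made where the adjusted p was 0.05 or less. The 38 members and the gene lists were chosen with earlier results of these data known. Test values are given for called members, otherwise for the 5 members with the smallest p in each comparison, and for the 3 such genes of the wider list in the averaged ones. P-values set each difference against the spread between fat pads within groups, pooled over the 4 groups and moderated by limma across all genes. Alternatives were pseudocount 0.1, no filter, a mean of at least 5 TPM, median-of-ratios scaling, adipocyte centring, a replicate block, and omission of libraries.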

Additional observations from a re-analysis of the deposited data

How the results depend on the processing

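No member was called under any alternative. All 595 alternative values of the members with the smallest p kept their direction, but with adjusted p far above the threshold this is no measure of stability, and several sizes moved by over 1.5 times, as given beside them. The limits are 2 or 3 libraries a group, an unknown read depth, lymph node RNA in 2 high-fat libraries, and a high WT_LFD 1; an omission can leave a group with 1 library, which is then assumed to vary like the other groups. The cause of the shifts below was not tested.

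Median differences of the members turned sign with adipocyte centring, to 0.035 for genotype averaged over diets and to 0.072 for genotype on the high-fat diet. That scaling moves all genes alike, and the median of all genes went from 0.08 to 0.34 and from 0.02 to 0.24. Scaling moved the median of all genes in the averaged diet comparison from 0.11 to -0.005 with median-of-ratios scaling and to -0.047 with centring. For diet in wild-type mice 8 members were lower at an unadjusted p under 0.05, against 1.37% of all genes. That share was 3.73% with median-of-ratios scaling and 1.76% with the replicate block. Without both lymph node-rich libraries WT_HFD holds 1 library, so no reading is drawn from the counts of that fit. Without both lymph node-rich libraries, members lower at an unadjusted p under 0.05 numbered 3 for diet averaged over genotypes, 3 for diet in wild-type and 4 for diet in null mice; in wild-type mice they numbered 15 with median-of-ratios scaling and 15 with the replicate block.

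Counts of called genes among all genes were small throughout. With no filter they were 3 for diet averaged, 5 for diet in wild-type mice, 0 for diet in null mice, 15 for genotype averaged, 2 and 18 for genotype on the low-fat and high-fat diet, and 3 for the interaction. With a pseudocount of 0.1 they were 0 for diet in null mice, 3 for genotype averaged, and 5 and 1 for genotype on the low-fat and high-fat diet. Adipocyte centring gave 1 for genotype averaged and 1 for the interaction, and omission of both lymph node-rich libraries gave 2 for diet in null mice and 0 for genotype on the high-fat diet.

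Leaving out each library in turn, the count of called genes ran from 0 to 2 for diet averaged, diet in null mice, diet in wild-type mice, genotype averaged and the interaction, from 0 to 3 for genotype on the high-fat diet, and from 0 to 1 on the low-fat diet. Members lower at an unadjusted p under 0.05 numbered 5 to 19 for diet averaged, 2 to 13 in null and 2 to 21 in wild-type mice. The 5, the 13 and both wild-type ends came from fits with 1 library left in WT_LFD, so no reading is drawn from them. With 1 null library left out, the averaged count ran from 13 (2.04% of all genes) without Null_LFD 3 to 19 (3.16%) without Null_HFD 2. In wild-type mice it ran from 5 (1.27%) without Null_HFD 2 to 12 (2.22%) without Null_HFD 3. In null mice it ran from 2 (2.1%) without Null_HFD 3 to 8 (1.68%) without Null_LFD 2. With each of the 10 libraries left out in turn, the median of the members ran from -0.87 to -0.49 for diet averaged. It ran from -0.66 to -0.30 in null mice and from -1.30 to -0.35 in wild-type mice. For genotype it ran from -0.43 to 0.094 averaged, -0.31 to 0.37 on the high-fat and -0.86 to 0.21 on the low-fat diet, and for the interaction from -0.27 to 0.87.

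The libraries share replicate numbers. Over 13 same-numbered pairs the correlation of their deviations ran from -0.35 to 0.41, and 2 pairs were over 0.1. Over 24 differently numbered pairs it ran from -0.50 to 0.50, and 2 were over 0.1. In a group of 2 the deviations are mirror images, so each such correlation occurs with both signs. These values therefore cannot decide whether same-numbered libraries belong together. With the replicate number as a block, no member was called, and 3 genes of all were called for diet in null mice. For diet averaged over genotypes 20 members were then lower at an unadjusted p under 0.05, against 3.09% of all genes.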
